A study of Mus musculus with 8 samples.

Results

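The genes described here make cholesterol and fatty acids or control that synthesis: 29 mouse genes chosen by name from the 54532 identifiers of a gene count table. All 29 were found in the table and all 29 had enough counts to be tested among 15857 genes. They fall into 4 groups by role: 5 regulators of the sterol regulatory element binding proteins (SREBPs), 7 enzymes of the mevalonate and isoprenoid steps, 11 enzymes from squalene to cholesterol and 6 enzymes of fatty acid synthesis. The libraries came from lens capsules of wild-type C57BL/6 mice aged 6 to 8 weeks, 7 days after surgery. In 4 sham libraries the cornea had been cut and the capsule left closed. In 4 libraries of the injury model that the submitters call ASC, a 26-gauge needle had opened the centre of the anterior capsule through the cornea. How many capsules or animals entered each one is not given in the labels, so p-values measure the spread between these libraries.

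Cholesterol is built from acetyl-CoA through mevalonate, farnesyl diphosphate and squalene, and fatty acids are built from acetyl-CoA through malonyl-CoA. The SREBPs are made as membrane proteins of the endoplasmic reticulum. Scap carries them to the Golgi for cleavage when sterols are low, and the Insig proteins hold Scap back when sterols are high. Fibre cell membranes of the lens are very rich in cholesterol, and the lens, which has no blood supply, makes much of it in place. Inherited defects of several of the enzymes described here, lanosterol synthase among them, cause cataract in humans or rodents.

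Control of these genes acts in part through their promoters. Hmgcs1 is a classic SREBP target, Insig1 the feedback regulator, and Sc5d the member with the lowest adjusted p between the groups. The stretches before the start sites of these 3 members are shown first. They are RefSeq sequences of build GRCm38.p6, written 5′ to 3′ on the strand of the gene, from 150 bases before the start and ended before any annotated exon. Capitals mark matches, on either strand, to the sterol regulatory element core TCACNCCAC, the NF-Y motif CCAAT, the Sp1 motif GGGCGG and the E-box CACGTG.
Hmgcs1, chr13:119690201-119690350, plus strand: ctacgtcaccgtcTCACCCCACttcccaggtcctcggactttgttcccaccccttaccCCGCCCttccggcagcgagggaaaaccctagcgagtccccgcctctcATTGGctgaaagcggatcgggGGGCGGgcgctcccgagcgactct
Insig1, chr5:28071262-28071362, plus strand: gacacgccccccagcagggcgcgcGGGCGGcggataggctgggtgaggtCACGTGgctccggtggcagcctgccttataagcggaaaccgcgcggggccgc
Sc5d, chr9:42264301-42264450, minus strand: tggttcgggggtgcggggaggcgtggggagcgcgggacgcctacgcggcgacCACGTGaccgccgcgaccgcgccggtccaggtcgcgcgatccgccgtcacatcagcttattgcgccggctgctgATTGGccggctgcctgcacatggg
The Hmgcs1 stretch holds 1 match to the sterol element core, 1 to CCAAT and 2 to the Sp1 motif. The Insig1 stretch holds 1 Sp1 and 1 E-box match, and the Sc5d stretch 1 E-box and 1 CCAAT match.

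RefSeq promoter windows, from 250 bases before to 50 after a start, were at hand for 24 of the 29 genes. CCAAT, the site of NF-Y, which acts beside the SREBPs at many sterol gene promoters, was found for 20 of the 24 (83.3%) and for 42.9% of the 11263 tested genes with a window. The Sp1 motif was also found for 20 of the 24, against 67.3% of those tested genes. The E-box was found for 5 of the 24 (20.8%), against 11.3%. The exact sterol element core was found for Hmgcs1 alone among the 24 (4.17%), against 1.33%. A match describes letters in the window and not a used site, and the SREBP sites of other members can differ from this core.

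No gene of the 29 passed the test between ASC and sham. In edgeR's quasi-likelihood test 0 passed an adjusted p of 0.05, and DESeq2 and limma-voom also called 0. Of all 15857 tested genes 162 passed, 1.02%, of which 100 were higher (0.631% of those tested) and 62 lower (0.391%) in ASC (75 and 70 when scaled by library totals alone). At an unadjusted p under 0.05 the members numbered 3, Sqle, Sc5d and Elovl6, against 14.7% of all tested genes. The 1 higher member, Sqle, stands against 6.82% of all tested genes and the 2 lower ones against 7.9%. The 4 ASC libraries lay to 1 side of the 4 sham libraries for 3 members, Pmvk above and Sc5d and Elovl6 below, against 9.06% of all tested genes (3.39% above and 5.67% below). Both member counts come to a smaller or similar share than the background.

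The estimates were small and bounded. Log2 fold changes, ASC over sham, ran from -0.31 for Sc5d to 0.41 for Insig1, with a median of 0.09 against 0.01 for all tested genes. The Insig1 estimate was 0.22 without ASC 3 and 0.58 without sham 1. For 27 of the 29 the whole 95% confidence interval lay within a 1.5-fold change in either direction, and for 28 within a 2-fold change. Insig1 reached 0.96 at the upper end of its interval, and Fdps, with 9 to 34 reads per library, spanned -0.85 to 1.41. A positive value was found for 19 members and a negative one for 10. When libraries were scaled by their totals alone, which moved the median of all genes to -0.12, the split was 10 and 19.

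**Figure D1:**
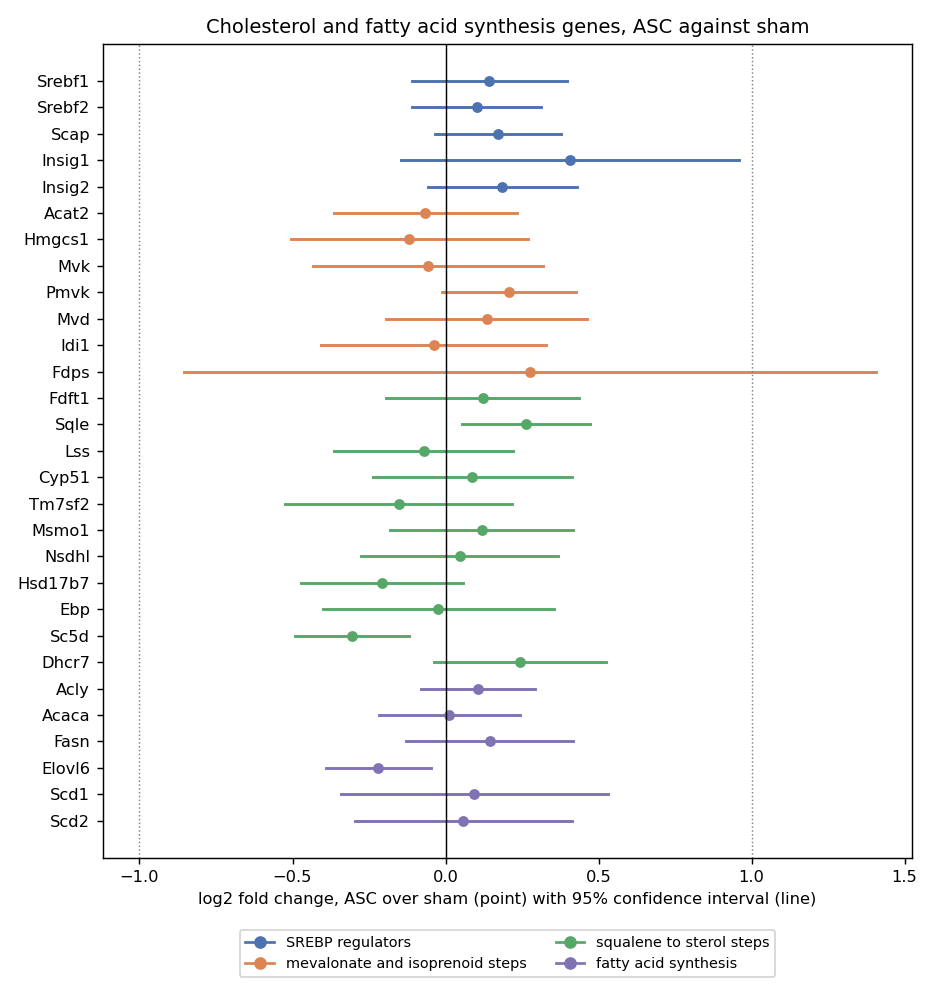
Log2 fold change of each of the 29 genes, ASC over sham (x axis; point), with its 95% confidence interval (line), coloured by role; dotted lines mark a 2-fold change. The intervals of Sc5d, Elovl6 and Sqle leave out 0, none of the 3 passed adjustment, and Fdps alone crosses a dotted line.

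The SREBP regulators all had positive estimates that did not pass the test. Srebf1 encodes SREBP-1, whose isoforms drive fatty acid and sterol genes and are not told apart in counts per gene. Its level in CPM (read counts brought to 1 common library total, here on TMM-scaled library sizes) was 355, 251, 302 and 299 in sham libraries 1 to 4 and 347, 353, 328 and 305 in ASC libraries 1 to 4. The ASC values lay within the sham range, with sham 1 highest and sham 2 lowest (0.14, SE 0.12, adjusted p = 0.618). Srebf2 encodes SREBP-2, the main driver of the sterol genes. It stood at 107, 92.9, 109 and 89.1 CPM in sham and 103, 119, 103 and 102 CPM in ASC, with ASC 2 above all others (0.10, SE 0.10, adjusted p = 0.689). That small positive value turned to -0.02 under scaling by library totals.

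Scap, the escort of the SREBPs, was at 39.5, 43.3, 43.2 and 36.3 CPM in sham and 42.9, 48.5, 42.5 and 49.0 CPM in ASC. ASC 2 and ASC 4 exceeded every sham library, and the other two did not (0.17, SE 0.09, adjusted p = 0.434). Insig1, which retains Scap and is itself induced by SREBPs, had 289, 172, 152 and 252 CPM in sham libraries and 281, 249, 393 and 221 CPM in ASC. It varied more within each group than between them: ASC 3 was highest, sham 2 and sham 3 were lowest, and 3 of the 4 ASC libraries fell between sham values (0.41, SE 0.24, adjusted p = 0.487). Insig2, its paralogue, was at 36.8, 41.4, 36.9 and 35.0 CPM in sham and 50.2, 35.3, 44.3 and 41.0 CPM in ASC. ASC 1 and ASC 3 were above all sham libraries and ASC 2 was near the lowest of them (0.19, SE 0.11, adjusted p = 0.476).

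**Figure D2:**
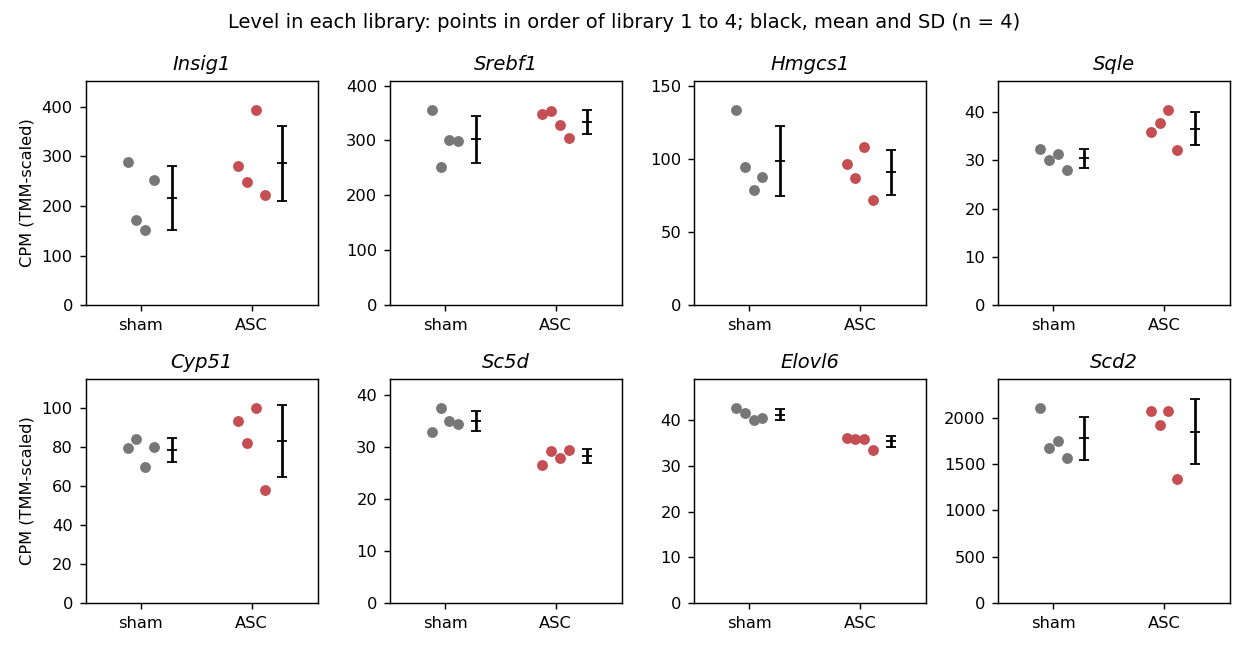
CPM of 8 of the genes in each library (y axis from 0; x axis, group), with points placed from library 1 to 4 and the mean and SD of 4 libraries in black. The groups overlap for Insig1, Srebf1, Hmgcs1, Sqle, Cyp51 and Scd2, and do not for Sc5d and Elovl6.

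Among the mevalonate and isoprenoid genes 3 had positive and 4 negative estimates, with a median of -0.04. Hmgcs1, cytosolic HMG-CoA synthase, was the most abundant of them. It had 134, 94.8, 78.7 and 87.9 CPM in sham libraries and 96.5, 86.9, 108 and 72.1 CPM in ASC. The highest library was sham 1 and the lowest ASC 4, so the spread within groups exceeded the difference (-0.12, SE 0.17, adjusted p = 0.805). Without sham 1 the sign turned, at 0.06. Pmvk, phosphomevalonate kinase, was at 17.4, 18.7, 15.4 and 17.6 CPM in sham and 18.8, 19.3, 20.7 and 20.9 CPM in ASC. Every ASC library was above every sham library, by little at the nearest pair, and the test was not passed (0.21, SE 0.10, adjusted p = 0.371).

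The other genes of these steps stayed near 0. Mvd, which makes isopentenyl diphosphate, had 16.0 ± 3.33 CPM in the sham libraries and 17.6 ± 2.06 CPM after ASC (SD, n = 4; log2 fold change 0.13). Idi1, the isomerase of isopentenyl diphosphate, had 17.3 ± 1.45 and 16.8 ± 4.35 CPM (-0.04), and mevalonate kinase, Mvk, 15.2 ± 3.33 and 14.6 ± 2.66 CPM (-0.06). Acat2, the cytosolic thiolase that makes acetoacetyl-CoA, had 10.4 ± 1.24 and 9.95 ± 0.786 CPM (-0.07). None of these 4 differed by more than its spread between libraries.

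Fdps, farnesyl diphosphate synthase, stood apart for its low count. Its level was 0.609, 0.420, 1.11 and 1.79 CPM in sham and 2.17, 0.869, 0.868 and 0.742 CPM in ASC (0.28, SE 0.52). Its neighbours in the pathway, Idi1 before it and Fdft1 after it, had 17.3 and 62.9 CPM in sham. Of the 75-base words of the longest coding Fdps transcript in GENCODE M21, 80.4% also occur in other annotated genes, 74.9% in Gm43738 and 25.5% in the processed pseudogene Gm3571. Gm43738 was counted at 0 to 1 reads and Gm3571 at 37 to 75 reads per library. How reads that match several genes were counted is not given in the labels or notes, so the level of Fdps is uncertain, and the part of shared sequence in it was not tested.

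Other members share less sequence. The share was 47.4% for Acaca (the pseudogene Gm5182, at 101 to 233 reads), 40.7% for Acat2 (Acat3 and Tcp1), 29.1% for Idi1 and 25.4% for Fdft1 (mostly Ctsb, with 19.3%). It was 12.2% for Hmgcs1, 10.2% for Scap and at most 3.24% for the remaining 22 members, Scd1 and Scd2 included. Values of the genes with large shares may mix with or lose reads to those copies or neighbours.

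From squalene to cholesterol 6 genes had positive and 5 negative estimates, with a median of 0.05, and on library totals alone 2 and 9. Sc5d, the sterol C5-desaturase that acts on lathosterol, had the lowest adjusted p of all members. It was at 33.0, 37.5, 35.1 and 34.5 CPM in sham and 26.7, 29.3, 27.9 and 29.5 CPM in ASC. All 4 ASC libraries were below all 4 sham libraries, and the difference did not pass adjustment (-0.31, SE 0.09, interval -0.49 to -0.12, adjusted p = 0.118). Over 18 alternative settings the estimate was -0.43 to -0.28, the sign did not turn, and the lowest adjusted p was 0.0842.

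Sqle, squalene epoxidase, one of the rate-limiting enzymes of the pathway, was at 32.4, 30.2, 31.2 and 27.9 CPM in sham and 35.8, 37.8, 40.4 and 32.2 CPM in ASC. Only ASC 4 reached into the sham range (0.26, SE 0.10, interval 0.05 to 0.47, adjusted p = 0.234). Cyp51, the lanosterol demethylase and the most abundant gene of these steps, was at 79.5, 84.2, 69.5 and 79.9 CPM in sham and 93.0, 81.9, 99.97 and 57.8 CPM in ASC. ASC 3 was the highest and ASC 4 the lowest of all libraries, so that the ASC values enclosed those of sham (0.09, SE 0.15, adjusted p = 0.833). Lss, lanosterol synthase, which is known from inherited cataract, had 39.2 ± 5.88 CPM in sham libraries against 37.3 ± 5.94 CPM after ASC (-0.07, interval -0.36 to 0.22).

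The remaining genes of this group had smaller estimates than Sc5d. Fdft1, squalene synthase, had 62.9 ± 8.99 CPM in sham libraries against 68.3 ± 12.8 CPM after ASC (0.12), and Msmo1, the C4-methyl sterol oxidase, 27.5 ± 1.86 and 29.8 ± 6.40 CPM (0.12). Nsdhl, its partner in removing the C4 methyl groups, had 16.2 ± 1.89 and 16.7 ± 3.14 CPM (0.05), and Hsd17b7, the ketoreductase of the same complex, 29.8 ± 3.23 and 25.8 ± 3.72 CPM (-0.21). Tm7sf2, a sterol C14-reductase, was at -0.15 on the log2 scale and Ebp, the sterol isomerase, at -0.02. Dhcr7, the last enzyme of the route through 7-dehydrocholesterol, had 17.9 ± 2.40 and 21.3 ± 2.90 CPM (0.24, SE 0.13, adjusted p = 0.41). None of these 7 passed the test.

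Fatty acid synthesis had 5 positive estimates and 1 negative, with a median of 0.08. On library totals alone the split was 1 and 5, with Fasn the positive one. Elovl6, which lengthens palmitate to stearate, was at 42.7, 41.6, 40.1 and 40.6 CPM in sham and 36.2, 36.0, 35.9 and 33.6 CPM in ASC. The groups did not overlap and each was tight, and the difference did not pass adjustment (-0.22, SE 0.08, interval -0.39 to -0.05, adjusted p = 0.226). Scd2, a stearoyl-CoA desaturase, was the most abundant gene of all 29. It had 2107, 1679, 1754 and 1570 CPM in sham libraries and 2075, 1924, 2069 and 1335 CPM in ASC, with ASC 4 lowest of all libraries and the other three ASC libraries within the sham range (0.06, SE 0.16, adjusted p = 0.909).

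The remaining genes of fatty acid synthesis, the desaturase Scd1 among them, had estimates near 0 that did not pass the test. Fasn, fatty acid synthase, had 204 ± 34.9 CPM in sham libraries against 226 ± 18.3 CPM after ASC (0.14, interval -0.13 to 0.42). Acly, which supplies cytosolic acetyl-CoA from citrate, had 119 ± 7.62 and 128 ± 6.20 CPM (0.11, interval -0.08 to 0.29). Acaca, acetyl-CoA carboxylase, had 44.9 ± 4.16 and 45.3 ± 5.10 CPM (0.01, interval -0.22 to 0.24), so that a change beyond 0.24 in either direction lay outside its interval. Scd1 had 53.4 ± 11.6 and 57.0 ± 13.1 CPM (0.09).

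Levels can be compared between genes only per length. Per kilobase of exon, Scd2 had a mean of 325 CPM in sham, above 99.6% of tested genes. Insig1 followed with 69.8 and Srebf1 with 53.6, and their order in ASC was the same with 92.5 and 59.1. Srebf2 was at 13.8 CPM per kilobase, Scd1 at 10.9 and Acaca at 2.63. Apart from Fdps at 0.233, the lowest was Tm7sf2 at 2.40. Many neighbours between 5.45 and 5.84 in sham (Scap, Sqle, Ebp, Nsdhl, Mvk and Hsd17b7) lay closer to each other than their spread over libraries.

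**Figure D3:**
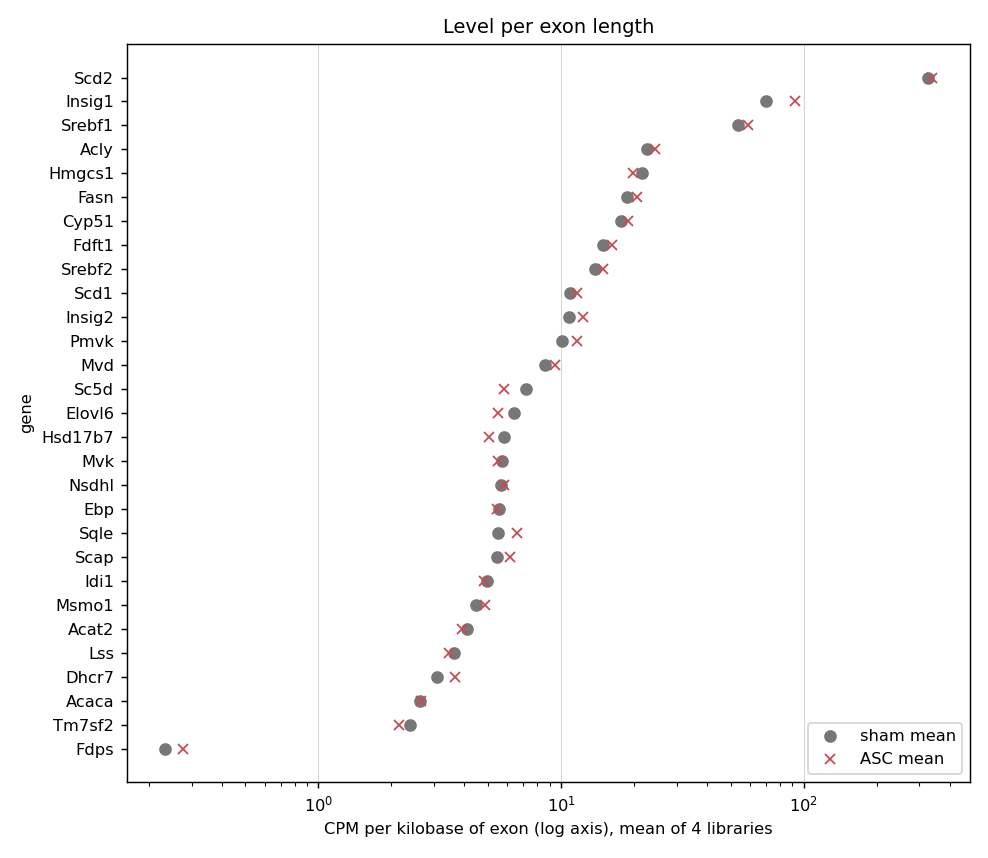
Mean CPM per kilobase of exon in sham (grey points) and ASC (red crosses) for each gene (y axis), on a log x axis. Scd2 stands at 325 in sham, Fdps at 0.233 and the other genes between 2.40 and 69.8, with sham and ASC marks close together in each row.

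Single libraries moved many of these genes together. ASC 4 was the lowest of the 8 libraries for 10 of the 29 genes, 7 of them among the 18 enzymes of the sterol steps, while 15% of all tested genes were lowest there. Sham 1 was the highest library for 10 members, against 13.8% of all tested genes, and ASC 3 for 7, against 7.95%. The median deviation of the squalene-to-sterol genes from their means was -0.24 (log2) in ASC 4 and 0.15 in ASC 3, both in the same group. Without ASC 4 the median log2 fold change of the members was 0.16, and without ASC 3 it was 0.00073, with 0 members called in either case. ASC 4 had 14638645 counts, sham 4 had 14420494, and the other libraries up to 21141582.

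The summed level of 10 lens fibre markers was highest in sham 1, sham 4, ASC 1 and ASC 3. It was 69750, 83160, 103500 and 83920 CPM there and at most 64390 CPM in the other libraries. Most of that sum came from Cryba1 and Crygs, and the markers did not all share its order. Bfsp1, Bfsp2, Lim2, Dnase2b and Lgsn were higher in ASC 4 than in sham 1. Mip, Gja3, Cryba1, Crybb1 and Crygs were lower there. Fdft1 was at 70.8, 69.6, 73.9 and 82.1 CPM in sham 1, sham 4, ASC 1 and ASC 3. It was at most 65.1 CPM in the others. Insig1 did not part these libraries clearly, with 252 CPM in sham 4 against 249 CPM in ASC 2. Some members did not follow this split, such as Cyp51, at 84.2 CPM in sham 2 against 79.5 CPM in sham 1. Ebp was lowest of all libraries in sham 1, at 8.75 CPM, and Sqle in sham 4, at 27.9 CPM. The members named here were picked after their values were seen, and the part of fibre RNA in their levels was not tested. In bulk libraries fewer cells of a type and less RNA per cell cannot be told apart.

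**Figure D4:**
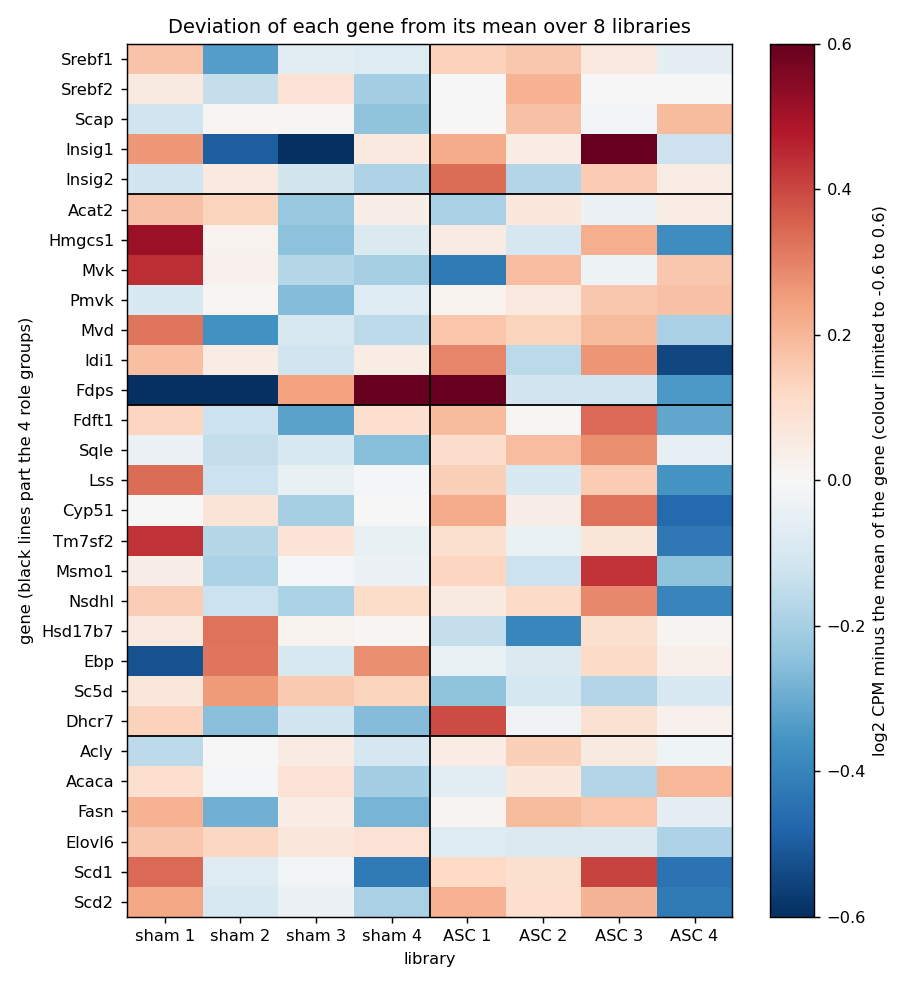
Deviation of each gene (rows) in each library (columns) from its own mean over 8 libraries, in log2 CPM, with colour limited to -0.6 to 0.6. ASC 4 is blue and ASC 3 red for many sterol genes, Sc5d and Elovl6 change colour between the groups, and Fdps is extreme for its 9 to 34 reads.

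Markers of the cells in the samples bear on these levels. Of 8 lens epithelial markers 7 were tested and 0 called, with summed levels of 2493 to 2661 CPM in sham against 2289 to 2787 CPM after ASC. All 10 fibre markers were tested and had positive estimates, with 3 at an unadjusted p under 0.05 (Bfsp1, Dnase2b and Lgsn) and 0 called, at 45230 to 83160 CPM in sham against 56900 to 103500 CPM after ASC. Of the 7 adipocyte markers, all averaged under 1 CPM and 2 had no read. Of 8 sebaceous or meibomian markers 2 were tested, and the sum was 3.97 to 6.996 CPM in sham against 3.86 to 5.38 CPM after ASC. The sum of 7 red cell markers did not overlap (40.0 to 62.8 CPM in sham against 73.9 to 370.2 CPM after ASC), with 5 at an unadjusted p under 0.05, all higher, and 0 called. The 8 pigment cell markers summed to 170 to 375 CPM in sham against 261 to 815 CPM after ASC. Of them 7 had positive estimates, 5 had an unadjusted p under 0.05, all higher, and 0 were called. Trpm1 (0.24) and Oca2 (-0.21), the most abundant of the list in sham at 97.5 and 65.7 CPM, were not among those 5. Of 6 corneal markers in the table, Krt12 (3.19) and Krt5 (3.52) rose and Aldh3a1 (0.29) did not pass. The sums were 385 to 599 CPM in sham against 347 to 941 CPM after ASC. Leukocyte markers numbered 13, with 2 at an unadjusted p under 0.05 and 0 called. They summed to 31.9 to 94.9 CPM in sham against 53.6 to 217 CPM after ASC. Gpnmb made up much of that sum, at 21.4, 19.1, 47.1 and 8.86 CPM in sham 1 to 4. In ASC 1 to 4 it had 34.2, 102, 113 and 156 CPM. The pigment marker Pmel had 14.2, 17.3, 37.9 and 6.70 CPM in sham and 29.1, 68.6, 126 and 124 CPM in ASC. The leukocyte marker C1qa had 0.421, 8.36, 5.425 and 4.91 CPM in sham and 2.04, 9.88, 8.91 and 9.11 CPM in ASC. The part of pigment cells in the level of Gpnmb was not tested. These 3 genes were singled out after their values were seen. Of the 11 leukocyte markers tested, 10 had positive estimates and Mrc1 a negative one (-0.33). Neutrophil markers numbered 7, all averaging under 1 CPM over the libraries, 2 with no read. Their sums were 0.521 to 1.31 CPM in sham against 1.68 to 3.71 CPM after ASC, without overlap. The 1 neutrophil marker tested, Ltf, had an unadjusted p under 0.05 (1.97) and was not called. Retinal markers (8 genes, 0 called) summed to 1034 to 4290 CPM in sham against 2033 to 3838 CPM after ASC. All 8 had positive estimates, with 1 at an unadjusted p under 0.05, Opn1sw (0.96). Schwann cell and myelin markers (7 genes, 0 called) summed to 575 to 600 CPM in sham against 418 to 659 CPM after ASC. Of the 5 tested, 4 had positive estimates and 1 an unadjusted p under 0.05, Egr2 (2.26, at 0.289 and 1.47 CPM). The part of these cells in the members' values was not tested.

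In 8 lists of surrounding pathways edgeR called 0 genes with the low-count filter and all libraries. Over all tested genes 51.4% had positive estimates, 6.82% were higher and 7.9% lower at an unadjusted p under 0.05, and the lists' counts were not tested against these shares. Of 12 genes of the processing, transport and turnover of the SREBPs and their regulators, 0 passed in edgeR and limma-voom. An unadjusted p under 0.05 was found for 3, all lower in ASC, Erlin1 (-0.40) and Sec24c (-0.21) among them. DESeq2 called 1 gene of the list. Rnf145, among the most abundant, was at 0.02, and Mbtps1, the first SREBP protease, was at -0.06.

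Of 11 LXR targets and genes of sterol efflux and esterification 0 passed in the 3 tools and 0 had an unadjusted p under 0.05. Their median was 0.04, with Abca2 at 0.08 and Nr1h2, the LXR-beta receptor, at 0.04. Of 12 genes of sterol uptake and transport 0 passed in the 3 tools and 2 had an unadjusted p under 0.05. These were the endocytic receptor Lrp1, at 460 and 579 CPM (0.33, SE 0.12, adjusted p = 0.231), and the lysosomal cholesterol carrier Npc2 (0.27, adjusted p = 0.258). Gramd1b, a sterol transfer protein, was at -0.19. Of 8 other isoprenoid genes 0 passed in the 3 tools and 0 had an unadjusted p under 0.05, with Fnta at 0.00 and Coq2 at 0.08.

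Of 8 tested genes of NADPH, acetyl-CoA and citrate supply 1 had an unadjusted p under 0.05, and the most abundant, Mdh1 and Cs, were at 0.06 and 0.12. Me1, the malic enzyme that makes NADPH, had 43.8, 39.0, 38.8 and 32.7 CPM in sham libraries and 56.4, 51.1, 54.3 and 48.8 CPM in ASC. Its groups did not overlap, and it did not pass in edgeR or limma-voom (0.45, SE 0.10, edgeR adjusted p = 0.0611). DESeq2 called it (adjusted p = 0.0158), and so did edgeR with no low-count filter (adjusted p = 0.0115). Of 15 genes of elongation, desaturation and fatty acid activation 12 had positive estimates and 4 an unadjusted p under 0.05, all higher, with a list median of 0.25 and 0 called by the 3 tools. The most abundant were Tecr (0.36, adjusted p = 0.265) and Fads1 (0.20, adjusted p = 0.502). Of 12 glycerolipid genes 3 had an unadjusted p under 0.05, all higher, and 0 were called by the 3 tools, with a median of 0.14, Agpat1 at 0.21 and Lpin2 at 0.06. The lipid droplet protein Plin2, chosen after its values were seen, had 5.26 and 7.62 CPM (0.54, SE 0.16, adjusted p = 0.152).

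Of 13 genes of fatty acid oxidation 0 passed in edgeR with all libraries and the low-count filter and in limma-voom, 1 had an unadjusted p under 0.05, and the median was 0.02, with Acadm at -0.05. Cpt2, the inner carnitine palmitoyltransferase, was at 26.9, 26.3, 26.3 and 32.6 CPM in sham and 71.3, 27.97, 50.6 and 47.2 CPM in ASC. ASC 2 alone stayed within the sham range (0.82, SE 0.25, edgeR adjusted p = 0.187). DESeq2 called it (adjusted p = 0.0154), and so did edgeR without ASC 2 (1.01, adjusted p = 0.00458) or with no low-count filter (adjusted p = 0.000121). Erlin1, Sec24c, Npc2, Me1 and Cpt2 were singled out after their values were seen.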

How the data were processed

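Poly-A RNA of 8 lens capsule libraries was sequenced. The authors deposited 1 table of unnormalized read counts per gene, with 14420494 to 21141582 counts per library. CASAVA, fastp, HISAT2 2.0.5 and featureCounts 1.5.0-p3 are named in the submitters' processing notes. Not given in the sources used here were the genome build, annotation, strand setting and treatment of multi-mapping reads. Symbols were matched for 54409 of 54532 identifiers. GENCODE M21 gave exon lengths and transcripts, and RefSeq (GRCm38.p6) the promoters. Counting errors refer to reads, since no molecular identifiers were used.

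Counts were tested on the whole table with edgeR 4.0.16 in R 4.3.3 (filterByExpr, TMM, robust quasi-likelihood F test, no covariate) and Benjamini-Hochberg adjustment over 15857 genes at 0.05. The SE of a log2 fold change is its size over the square root of F. The script was tested on simulated data. There it called 32.3% of the 1.5-fold changes, 50.8% of the 2-fold and 83.3% of the 4-fold changes. Of its calls 8.4% were false. Across all tested genes, many changes of 2-fold or less can thus be missed. The changed genes were drawn at random from all tested genes, so these rates are not specific to the members. The median SE was 0.137 for the members and 0.163 for all tested genes. Alternatives were DESeq2 1.42.0, limma-voom (limma 3.58.1), 3 scalings, crystallin genes left out, 2 low-count filters, no robust estimation, a replicate block and each library left out.

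The members and gene lists were chosen with earlier results of these data known, so no list was tested. Values per library are given for the SREBP regulators, members at an unadjusted p under 0.05 and the most abundant member of each role group. From each other pathway list the members past the threshold, or else the 1 or 2 most abundant, are named, except for a few genes that are not reported here. Pmvk, Fdps, Mbtps1 and the genes said to be singled out were added after their values were seen.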

Additional observations from a re-analysis of the deposited data

Results flagged for a closer look

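In 5 of 58 sets of 4 libraries, each gene of the 29 within each group, 1 library stood far from the other 3, judged by its gap to the nearest library over the whole range of log2 CPM. Chance flags about 1 in 20 such sets. Srebf2 in ASC 2 had the largest ratio, 0.969, with 119 CPM against 102 to 103 CPM in the other ASC libraries. Elovl6 was lowest in ASC 4 (ratio 0.913, 33.6 CPM against 35.9 to 36.2), and Mvd was also lowest in ASC 4 (ratio 0.852, 14.5 CPM against 18.2 to 18.9). Fdps was highest in ASC 1 (ratio 0.873, 2.17 CPM against 0.742 to 0.869). Hsd17b7 was highest in sham 2 (ratio 0.853, 34.6 CPM against 27.8 to 28.7).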

How the results depend on the processing

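No member was called under any of the 18 alternatives. The count over all genes, 162, was 572 with DESeq2, 712 with no low-count filter and 56 to 228 with 1 library left out (56 without sham 2, 67 without sham 4 or ASC 4, 72 without ASC 3, 79 without sham 1, 101 without ASC 1). Of the other lists, 1 gene was called in SREBP processing (DESeq2), 1 in NADPH supply (DESeq2, no low-count filter) and 1 in fatty acid oxidation (DESeq2, no low-count filter), there 0 to 1 with a library left out. The members' median was -0.0459 on library totals and 0.00073 to 0.161 with a library left out.

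Signs turned for members with main estimates of at most 0.12 in size, and for Fdps (0.28), which was at -0.207 without ASC 1. Insig1 kept its sign, at 0.216 (without ASC 3) to 0.579 (without sham 1). On library totals Srebf2 was at -0.022, Fdft1 -0.0029, Cyp51 -0.0459, Msmo1 -0.0183, Nsdhl -0.0757, Acly -0.021, Acaca -0.108, Scd1 -0.0462 and Scd2 -0.0764. With limma-voom Idi1 was at 0.0149, Ebp 0.0749 and Acaca -0.0451. Acaca was at -0.0063 with upper-quartile scaling and -0.00073 with no low-count filter. With 1 library left out the values ran from -0.215 to 0.0613 for Hmgcs1, -0.131 to 0.102 for Mvk, -0.149 to 0.0995 for Idi1, -0.207 to 0.695 for Fdps, -0.134 to 0.0383 for Lss, -0.0124 to 0.224 for Cyp51, -0.0255 to 0.205 for Msmo1, -0.0482 to 0.161 for Nsdhl, -0.174 to 0.0811 for Ebp, -0.0581 to 0.0711 for Acaca, -0.0352 to 0.234 for Scd1 and -0.0013 to 0.183 for Scd2. The cause was not tested.

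Replicate numbers did not clearly pair the libraries, though so few libraries cannot exclude pairing. Correlations of deviations between same-numbered libraries were 0.25, 0.073, 0.213 and -0.101, and 3 of 8 libraries correlated best with their own number. With the replicate block 169 genes and 0 members were called, and Ebp was at 0.0055. Fdps was not tested under the stricter filter. Depth limits Fdps most, at 9 to 34 reads.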

Other observations

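Cpt2 and the lens fibre gene Lgsn, both singled out after their values were seen, were highest in ASC 1 and, among the ASC libraries, lowest in ASC 2. Lgsn, a glutamine synthetase-like protein of fibre cells, had 253, 253, 470 and 652 CPM in sham 1 to 4 and 5463, 668, 3231 and 3243 CPM in ASC 1 to 4 (log2 fold change 2.95, SE 0.68, edgeR adjusted p = 0.118). For Lgsn, ASC 2 was just above the highest sham library, and for Cpt2 it was within the sham range. The relation was not tested.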
